A study of Mus musculus with 11 samples.

Results

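The genes described here carry the fast energy reserve and the oxygen store of muscle: the creatine kinases Ckm, Ckb and Ckmt2, the creatine transporter Slc6a8, the adenylate kinase Ak1, the AMP deaminases Ampd1 and Ampd3, and myoglobin (Mb). They were taken by name, and all 8 were found among the 15113 genes of the count table. Messenger RNA was counted in 11 libraries of C2C12, a myoblast line from mouse muscle that fuses into myotubes when serum is withdrawn, labelled as myotubes of an early stage at passages 2 to 5. The groups differed in the hairpin RNA that the cells carried: control libraries (n = 6) are labelled shRandom and Drp1 libraries (n = 5) are labelled shDRP1, after the mitochondrial fission GTPase encoded by Dnm1l. No other treatment or allele is named for either group, and the labels do not say how the hairpins were delivered, whether a line was 1 clone, or whether each library is a culture of its own. The p-values therefore measure only how these libraries scatter, which may be technical. The title of the series names substrate oxidation and calcium dynamics in muscle as the processes of interest. Values joined by ± are the mean and SD, over the 6 control libraries or the 5 Drp1 libraries.

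Creatine kinase moves phosphate between ATP and creatine, so that phosphocreatine can refill ATP within a contraction. Ckm is the muscle form that sits at the M-band of the sarcomere, Ckb is the brain form, and Ckmt2 is the mitochondrial form of striated muscle. Adenylate kinase turns a pair of ADP molecules into ATP and AMP, and AMP deaminase removes AMP as IMP, the first step of the purine nucleotide cycle. Myoglobin is the oxygen-binding heme protein of striated muscle fibres.

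Sequence upstream of the transcription starts was available for 6 of the 8 genes, in 13 windows of 250 bases (RefSeq, GRCm38.p6). Of the 4 windows shown, 3 precede genes that fell steeply and the fourth precedes Ak1, which did not. Capitals mark E-boxes (CANNTG, the element bound by MyoD and myogenin) and matches to the MEF2 consensus, each searched on both strands. The Ckm stretch lies at chr7:19410844-19411024 on the plus strand, within the Ckm gene, and stops before an annotated exon. The Ckb window lies at chr12:111672339-111672588 on the minus strand, outside annotated genes. The Mb window lies at chr15:77022788-77023037 on the minus strand, inside the Mb gene but in no annotated exon. The Ak1 window lies at chr2:32625187-32625436 on the plus strand, inside the Ak1 gene but in no annotated exon.
Ckm: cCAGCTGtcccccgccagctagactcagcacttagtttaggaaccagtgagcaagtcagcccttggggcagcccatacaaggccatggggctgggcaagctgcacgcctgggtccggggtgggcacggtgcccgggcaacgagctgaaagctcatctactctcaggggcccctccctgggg
Ckb: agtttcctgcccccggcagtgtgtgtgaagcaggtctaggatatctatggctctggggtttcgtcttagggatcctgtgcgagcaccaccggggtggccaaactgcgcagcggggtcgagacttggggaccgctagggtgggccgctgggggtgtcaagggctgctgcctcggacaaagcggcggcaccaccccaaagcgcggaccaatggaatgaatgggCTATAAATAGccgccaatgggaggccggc
Mb: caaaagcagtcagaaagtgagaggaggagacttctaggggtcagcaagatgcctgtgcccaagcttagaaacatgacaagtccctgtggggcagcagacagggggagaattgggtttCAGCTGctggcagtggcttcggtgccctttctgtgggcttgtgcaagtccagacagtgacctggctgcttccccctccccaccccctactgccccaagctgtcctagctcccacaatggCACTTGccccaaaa
Ak1: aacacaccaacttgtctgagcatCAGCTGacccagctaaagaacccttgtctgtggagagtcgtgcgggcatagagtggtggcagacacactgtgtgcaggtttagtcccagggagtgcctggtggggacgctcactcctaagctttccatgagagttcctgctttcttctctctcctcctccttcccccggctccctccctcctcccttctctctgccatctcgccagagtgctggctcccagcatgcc
The Ckm stretch opens with the E-box CAGCTG, 249 bases before the RefSeq start. CAGCTG also lies 133 bases before the start in the Mb window, which has a second E-box at 14 bases, and 227 bases before the start in the Ak1 window. No E-box was found in the Ckb window, whose MEF2 match begins 29 bases before the start and overlaps a TATAAA match. E-boxes were present in 66.2% of 32851 windows of this length in the RefSeq table, CAGCTG in 13%, TATAAA in 12.4%, the MEF2 consensus in 2.92% and the CArG box in 1.47%. CAGCTG was found in 2 of the 3 Mb windows, which overlap and share the same site, and in 2 of the 4 Ak1 windows. The windows shown were picked after these matches were seen. Among those not shown, the Ckmt2 window held 4 E-boxes, of which 1 was CAGCTG. For Ampd3, which did not pass, window 1 held 1 E-box, window 2 held 3, and window 3 held 1 CArG match. Which of the 3 listed Mb starts or 4 listed Ak1 starts these cells used is not given by tags at the other end of the transcript.

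Library totals ran from 15702942 to 23082617 counts in control and from 12277622 to 20706327 in Drp1 libraries. Levels are in CPM, each count over its library's size, with sizes scaled by the trimmed mean of M values. Dnm1l left 23.7% of its control level in Drp1 libraries (log2 fold change -2.07, SE 0.11, adjusted p = 2.7e-10, edgeR quasi-likelihood test with Benjamini-Hochberg adjustment over all genes tested, as throughout). Of 8 skeletal muscle markers, 7 fell and Myf5 rose, and their summed level was 10384 to 11766 CPM in control and 155.1 to 204.5 CPM in Drp1 libraries. Both groups carry the label of myotubes, and in Drp1 libraries the markers of that cell type other than Myf5 were thus far below control. Of 24 markers of endothelium, leukocytes, adipocytes, epithelium, nerve with glia, and red cells, 8 were analysed here, and together they summed to 9.04 to 10.9 CPM in control and 3.60 to 4.30 CPM in Drp1 libraries. Most of that control sum was the alpha globin gene Hba-a1. Of 13025 genes tested, 33.3% were lower and 33.9% were higher in Drp1 libraries at an adjusted p of 0.05, 67.1% in all, and the groups did not overlap for 48.9%. The median log2 fold change of all genes was 0.03. Against that background, 6 of the 8 genes could be tested, each with 12 or more counts in every library. Ckm, Ckb, Mb and Slc6a8 were lower, Ak1 was higher, and Ampd3 did not pass. Ckmt2 and Ampd1 stayed under the low-count filter.

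Creatine kinase transcripts were far lower in Drp1 libraries. Ckm (ENSMUSG00000030399, chr7:19404776-19422841, plus strand, GRCm38), the muscle form, was 93.8 CPM in the lowest, 100.5 in the median and 111.9 in the highest control library. In Drp1 replicates 1 to 5 it was 0.986, 1.31, 1.18, 0.565 and 1.16 CPM. The groups lie far apart and do not overlap. Means were 102.3 ± 6.88 CPM and 1.04 ± 0.292 CPM, which left 1.02% of the control mean (log2 fold change -6.64, SE 0.14, adjusted p = 2.1e-14 in edgeR). That is a 99.8-fold difference, and 3.92% of all genes tested were lower by 16-fold or more. In whole-culture RNA, fewer cells that express Ckm and less Ckm RNA per cell cannot be told apart. Of the 8 muscle markers given above, 7 moved the same way and Myf5 rose, and their part in the result was not tested.

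Ckb (ENSMUSG00000001270, chr12:111669361-111672338, minus strand) was the more abundant creatine kinase in both groups. Its control level ran from 285.4 CPM through a median of 330.0 to 357.5 CPM. Drp1 replicates 1 to 5 held 13.7, 13.7, 10.1, 11.2 and 12.6 CPM. Again no Drp1 library came near the control range. The mean fell from 326.6 ± 25.9 CPM to 12.3 ± 1.59 CPM, leaving 3.75% (log2 fold change -4.74, SE 0.10, adjusted p = 2.6e-14 in edgeR). Ckb thus fell by 26.7-fold, and Ckm by 99.8-fold.

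The mitochondrial form Ckmt2 (ENSMUSG00000021622, chr13:91853387-91876885, minus strand) was barely detected. Control replicates 1 to 6 held 3, 2, 1, 4, 0 and 1 counts, and all 5 Drp1 libraries held 0. Set against a floor of 3 counts over the whole Drp1 group and scaled for library size, the 11 control counts stood 2.97-fold higher. The counting error of those control counts was left out, so this is not a strict lower bound. The related gene Ckmt1 was not analysed here. Nearly all creatine kinase counts analysed here were therefore Ckb and Ckm.

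The mix of the creatine kinases also differed. QuantSeq reads come from near the poly(A) tail, about 1 tag per transcript, so counts of these genes were set side by side without dividing by length. Ckb made up 76.1% ± 2.05 of creatine kinase counts in control and 92.2% ± 2.17 in Drp1 libraries. Ckm made up the rest, 23.9% ± 2.05 and 7.85% ± 2.17. Control libraries held 2.62 to 3.65 Ckb counts per Ckm count, and Drp1 libraries held 13.9, 10.4, 8.52, 19.8 and 10.8. These ranges did not overlap. The Drp1 shares rest on 12 to 23 Ckm counts per library: 4.80% in replicate 4 has a 95% exact binomial interval of 2.5% to 8.23%, and 10.5% in replicate 3 has 6.77% to 15.3% (counting error only, since no molecular identifiers are named). The summed level of the 3 genes was 429.0 ± 26.1 CPM in control and 13.3 ± 1.70 CPM in Drp1 libraries, 3.10% of control. The plot of each gene by library shows these levels, and the stacked shares show the mix.

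**Figure D1:**
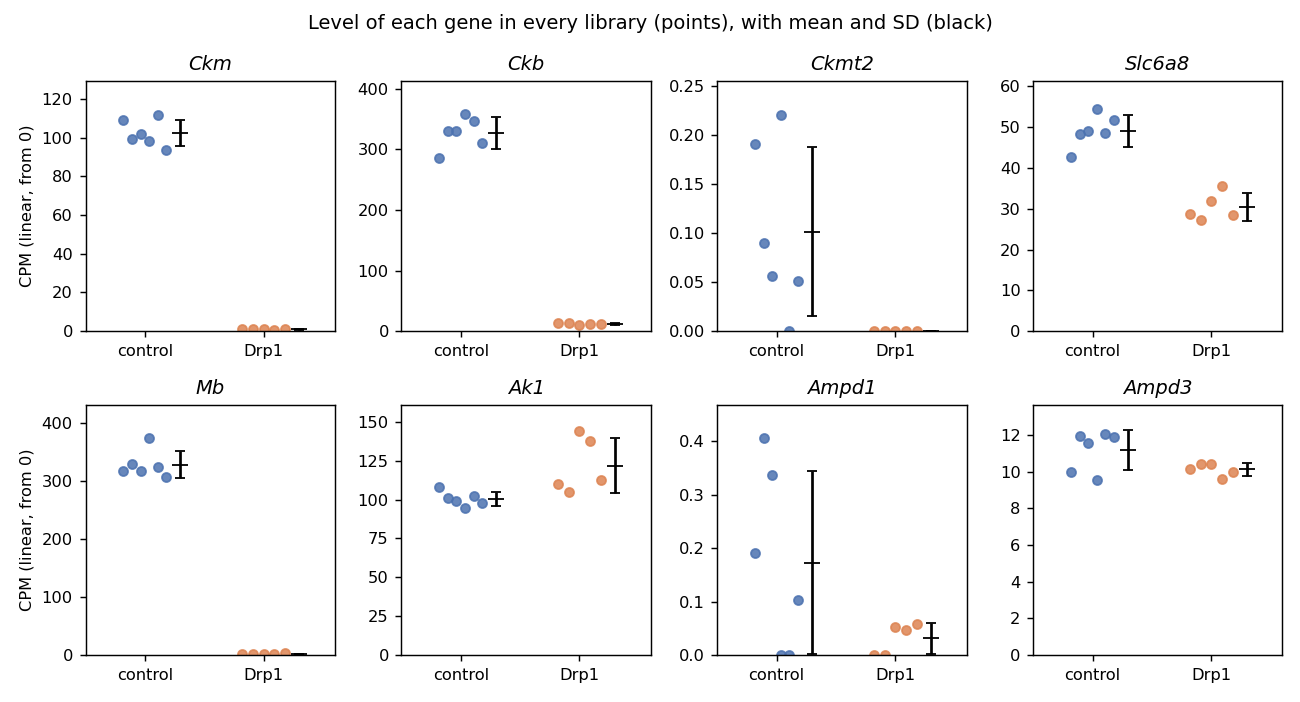
Level in CPM (linear axis from 0) of each of the 8 genes in the 6 control and 5 Drp1 libraries; points are libraries, and the black bar is the mean with its SD. Ckm, Ckb, Mb and Slc6a8 show no overlap between groups, while Ak1 and Ampd3 overlap and Ckmt2 and Ampd1 stay under 0.5 CPM.

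**Figure D2:**
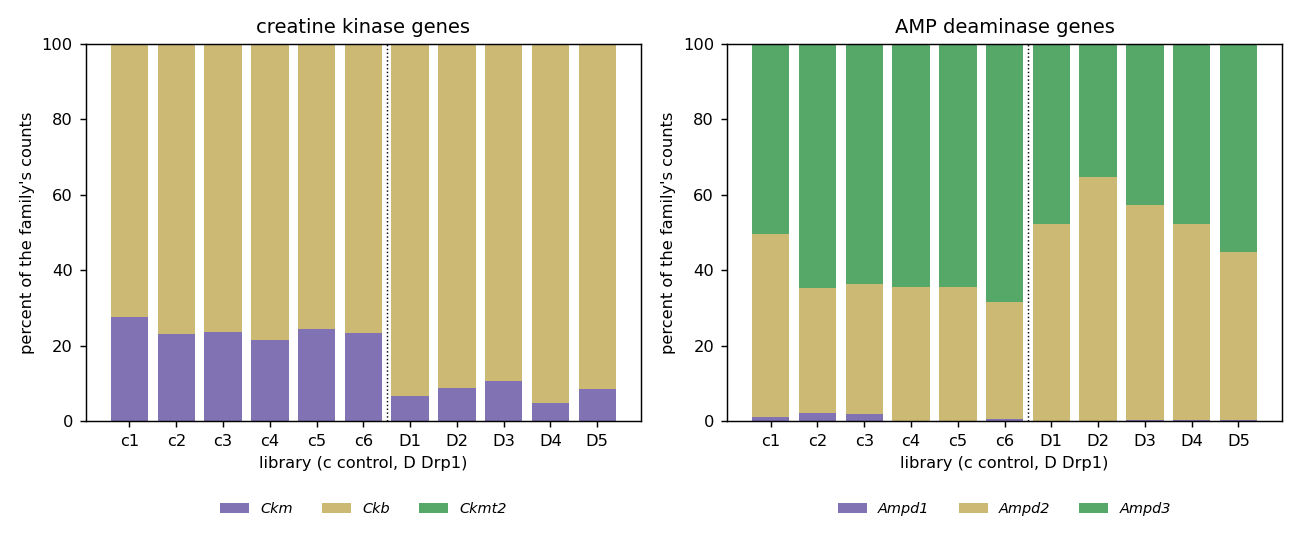
Percent of the counts of the creatine kinase genes (left) and AMP deaminase genes (right) taken by each gene in every library. Ckb took 76.1% of creatine kinase counts on average in control and 92.2% in Drp1 libraries. Ampd2 took 36.4% and 54.1% of AMP deaminase counts, with ranges that overlap between the groups.

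Of the genes for creatine uptake and synthesis, Slc6a8 and Gatm were lower and Gamt did not pass. Slc6a8 (ENSMUSG00000019558, chrX:73673150-73682502, plus strand), the sodium-dependent transporter that brings creatine into the cell, was 42.6 CPM in the lowest, 48.9 in the median and 54.4 in the highest control library. Drp1 replicates 1 to 5 held 28.7, 27.3, 32.0, 35.6 and 28.6 CPM. Every Drp1 library was below every control library, but most of the transcript remained. The mean fell from 49.2 ± 3.95 CPM to 30.4 ± 3.36 CPM, to 61.9% (log2 fold change -0.69, SE 0.08, adjusted p = 4e-06 in edgeR). Gatm, the amidinotransferase of the first step of creatine synthesis, fell from 24.6 ± 4.44 CPM to 3.02 ± 1.32 CPM, to 12.3% of control. Gamt, the methyltransferase of the second step, held 40.6 ± 2.89 CPM and 36.6 ± 3.88 CPM and did not pass (adjusted p = 0.12 in edgeR). Of the 5 tested genes of creatine use, uptake and synthesis, 4 were lower and none was higher, beside 33.3% of all genes lower. Ckm, Ckb and Slc6a8 are among these 5 and were already counted above. The 2 others are Gatm, which was lower, and Gamt, which did not pass. The median log2 fold change of the 5 was -3.06, the value of Gatm, beside 0.03 for all genes.

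Mb (ENSMUSG00000018893, chr15:77015487-77050670, minus strand) had the largest difference of the 6 tested genes. Its control level ran from 307.0 CPM through a median of 321.1 to 374.0 CPM. In Drp1 replicates 1 to 5 it was 1.62, 2.09, 2.16, 1.55 and 2.44 CPM, from 27 to 42 counts per library. No Drp1 library came near the control range. The mean fell from 328.2 ± 23.7 CPM to 1.97 ± 0.377 CPM, a 166.8-fold difference that left 0.602% (log2 fold change -7.38, SE 0.11, adjusted p = 2.3e-15 in edgeR). An antisense gene, Gm49540, is annotated near the 3' end of Mb and was not analysed here.

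Other globins were low and also fell. Cygb, the cytoglobin of many cell types, went from 2.49 ± 0.183 CPM to 0.210 ± 0.148 CPM, and Drp1 libraries held 1 to 7 counts each. Hba-a1, fixed here as a marker of red cells, went from 6.27 ± 0.557 CPM to 0.259 ± 0.120 CPM (log2 fold change -4.55, SE 0.21, adjusted p = 1.1e-10 in edgeR). Hba-a1 has a near-identical copy, Hba-a2, so its count is uncertain, and the part of red cell transcripts in the Mb result was not tested. Of 14 tested genes of globins and heme, 4 were higher, 3 lower and 7 did not pass, a smaller share called than the 67.1% of all genes, and the median log2 fold change was 0.12. The 3 lower genes were Mb, Cygb and the heme oxygenase Hmox1, and Cpox and Uros joined them without control replicate 4 or without Drp1 replicate 2, which made 5. Alad, which makes porphobilinogen, and the biliverdin reductases Blvra and Blvrb rose, Blvra from 20.8 to 35.6 CPM. Fech, which inserts iron to form heme, rose by 0.18 on the log2 scale, and Alas1, the first enzyme, did not pass (31.2 and 33.0 CPM). Among these genes, Hmox1, Alad, Blvrb, Fech, Alas1, Cpox, Uros and Hba-a1 were named after their values were seen.

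Ak1 (ENSMUSG00000026817, chr2:32621758-32635058, plus strand) went the other way. This cytosolic adenylate kinase of muscle held 94.3 CPM in the lowest, 99.8 in the median and 107.9 in the highest control library. Drp1 replicates 1 to 5 held 109.9, 105.1, 143.9, 137.5 and 112.9 CPM. Drp1 replicate 2 lay inside the control range, and the other 4 lay above it, replicates 3 and 4 by the most. The mean rose from 100.4 ± 4.62 CPM to 121.9 ± 17.6 CPM, to 121.3% of control (log2 fold change 0.28, SE 0.08, adjusted p = 0.0082 in edgeR). Spread among Drp1 libraries was wider than in control, with coefficients of variation of 14.4% and 4.60%.

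Ak4, a mitochondrial matrix form, fell from 4.1 ± 1.15 to 0.828 ± 0.296 CPM, and Drp1 libraries held 10 to 22 counts. Ak3, the matrix GTP:AMP form, fell from 99.1 ± 8.23 to 84.6 ± 6.30 CPM (adjusted p = 0.01 in edgeR), but was not past the threshold with library totals as the only scaling (adjusted p = 0.073). Ak6 held 154.9 ± 22.2 and 126.8 ± 27.2 CPM and did not pass (adjusted p = 0.079 in edgeR). It was lower without control replicate 1 (adjusted p = 0.019) or Drp1 replicate 5 (adjusted p = 0.017), both in edgeR. Of the 4 tested adenylate kinases reported here, 1 was higher, 2 were lower and 1 did not pass, a share called near the 67.1% of all genes, and the median log2 fold change was -0.26. Ak5, which is known from brain, stayed under the low-count filter with 21 counts in all control and 78 in all Drp1 libraries; it entered the test without Drp1 replicate 3, and then 2 adenylate kinases were higher. It was named after its values were seen.

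AMP deaminase transcripts were scarce next to adenylate kinase. Ampd3 (ENSMUSG00000005686, chr7:110768206-110812405, plus strand), the form of red cells and of many tissues, held 9.56 CPM in the lowest, 11.7 in the median and 12.1 in the highest control library. Drp1 replicates 1 to 5 held 10.2, 10.4, 10.4, 9.61 and 10.01 CPM. All 5 Drp1 libraries lay within the control range. Means were 11.2 ± 1.1 CPM and 10.1 ± 0.339 CPM. On the log2 scale the difference was -0.14 with a 95% interval of -0.35 to 0.06 (SE 0.09), and it did not pass (adjusted p = 0.17 in edgeR), which bounds a change but does not show that there was none. The gene Rnf141 on the opposite strand overlaps the 3' end of Ampd3 and held 56.8 ± 6.32 CPM in control and 63.0 ± 9.42 CPM in Drp1 libraries; since the strand setting of the counting is not given in the sources used here, reads of the overlap may not be told apart.

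Ampd1 (ENSMUSG00000070385, chr3:103074014-103099720, plus strand), the form of adult skeletal muscle, was near the limit of detection. Control replicates 1 to 6 held 3, 9, 6, 0, 0 and 2 counts, and Drp1 replicates 1 to 5 held 0, 0, 1, 1 and 1. Scaled for library size, control held 5.4 times the Drp1 level, with exact 95% binomial bounds of 1.6 and 28.4 that cover counting error alone. Control libraries differed widely among themselves, and control replicates 4 and 5 with 0 counts lie at the level of the Drp1 libraries. Ampd2, another AMP deaminase gene, rose from 6.56 ± 1.59 CPM to 12.5 ± 4.26 CPM, with control replicate 1 overlapping the Drp1 range (log2 fold change 0.93, SE 0.21, adjusted p = 0.0013 in edgeR). Its share of AMP deaminase counts was 36.4% ± 6.19 in control and 54.1% ± 7.48 in Drp1 libraries. The shares overlapped, with 31.1% to 48.6% in control and 44.4% to 64.8% in Drp1 libraries. Summed, the 3 genes held 17.9 ± 1.70 and 22.7 ± 4.48 CPM, 126.7% of control in Drp1 libraries. These sums overlapped too, with 14.8 to 19.8 CPM in control and 18.1 to 29.6 CPM in Drp1 libraries. Summed creatine kinase was at 3.10% of control. Counts of Ampd3, which may hold reads of Rnf141, enter the shares and sums of AMP deaminase. Sums were not tested.

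The next enzymes of the purine nucleotide cycle return IMP to AMP. Adss1, the adenylosuccinate synthase of muscle, fell from 34.3 ± 2.28 CPM to 2.48 ± 0.298 CPM, to 7.21% of control (log2 fold change -3.79, SE 0.10, adjusted p = 2e-13 in edgeR). Adss2, the form of most tissues, held 66.1 ± 4.61 and 57.5 ± 5.17 CPM (log2 fold change -0.20, adjusted p = 0.025 in edgeR). That call was lost without control replicate 2 (adjusted p = 0.051) or Drp1 replicate 3 (adjusted p = 0.053), both in edgeR, and with library totals as the only scaling. Adsl, the lyase that acts after both, fell from 56.0 to 37.1 CPM. Outside the cycle, the nucleoside transporter Slc29a1 fell from 494.8 ± 35.7 to 154.2 ± 12.6 CPM and Impdh1, which leads IMP toward guanine nucleotides, from 93.3 to 60.1 CPM. Of 18 tested genes of the cycle and of AMP handling, 10 were lower, 4 higher and 4 did not pass, beside 33.3% lower and 33.9% higher over all genes tested. Their median log2 fold change was -0.27, beside 0.03 for all genes. Adk, 1 of the higher genes (adjusted p = 0.048 in edgeR), did not pass under most of the alternatives described below. It was named after its values were seen.

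AMPK, the kinase that senses AMP, has 7 subunit genes, and 3 were lower, 2 higher and 2 not past the threshold (median log2 fold change -0.09), a share called near the 67.1% of all genes. Prkag3, the gamma subunit of skeletal muscle, fell from 53.0 ± 6.91 CPM to 0.634 ± 0.229 CPM, to 1.20% of control (log2 fold change -6.39, SE 0.18, adjusted p = 3.3e-13 in edgeR). Prkag2, another gamma subunit, rose from 8.57 ± 1.05 to 23.6 ± 2.43 CPM, and Prkab2, a beta subunit, fell from 38.5 to 23.7 CPM. Among 8 tested carriers and pores that pass adenine nucleotides through mitochondrial membranes, 4 were lower, 2 higher and 2 did not pass (median -0.23 on the log2 scale), again near the 67.1% called over all genes. Slc25a4, the ADP/ATP carrier of heart and skeletal muscle, rose from 544.4 ± 59.8 CPM to 958.7 ± 103.9 CPM, with no overlap (log2 fold change 0.82, SE 0.09, adjusted p = 1.3e-06 in edgeR). The carrier Slc25a24 rose by 0.30 and the outer membrane pore Vdac3 had a log2 fold change of -0.83. Slc25a5, the carrier of many tissues, held 68.4 and 57.5 CPM and did not pass (adjusted p = 0.27 in edgeR), except without Drp1 replicate 2 (adjusted p = 0.037 in edgeR); it was named after its values were seen.

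**Figure D3:**
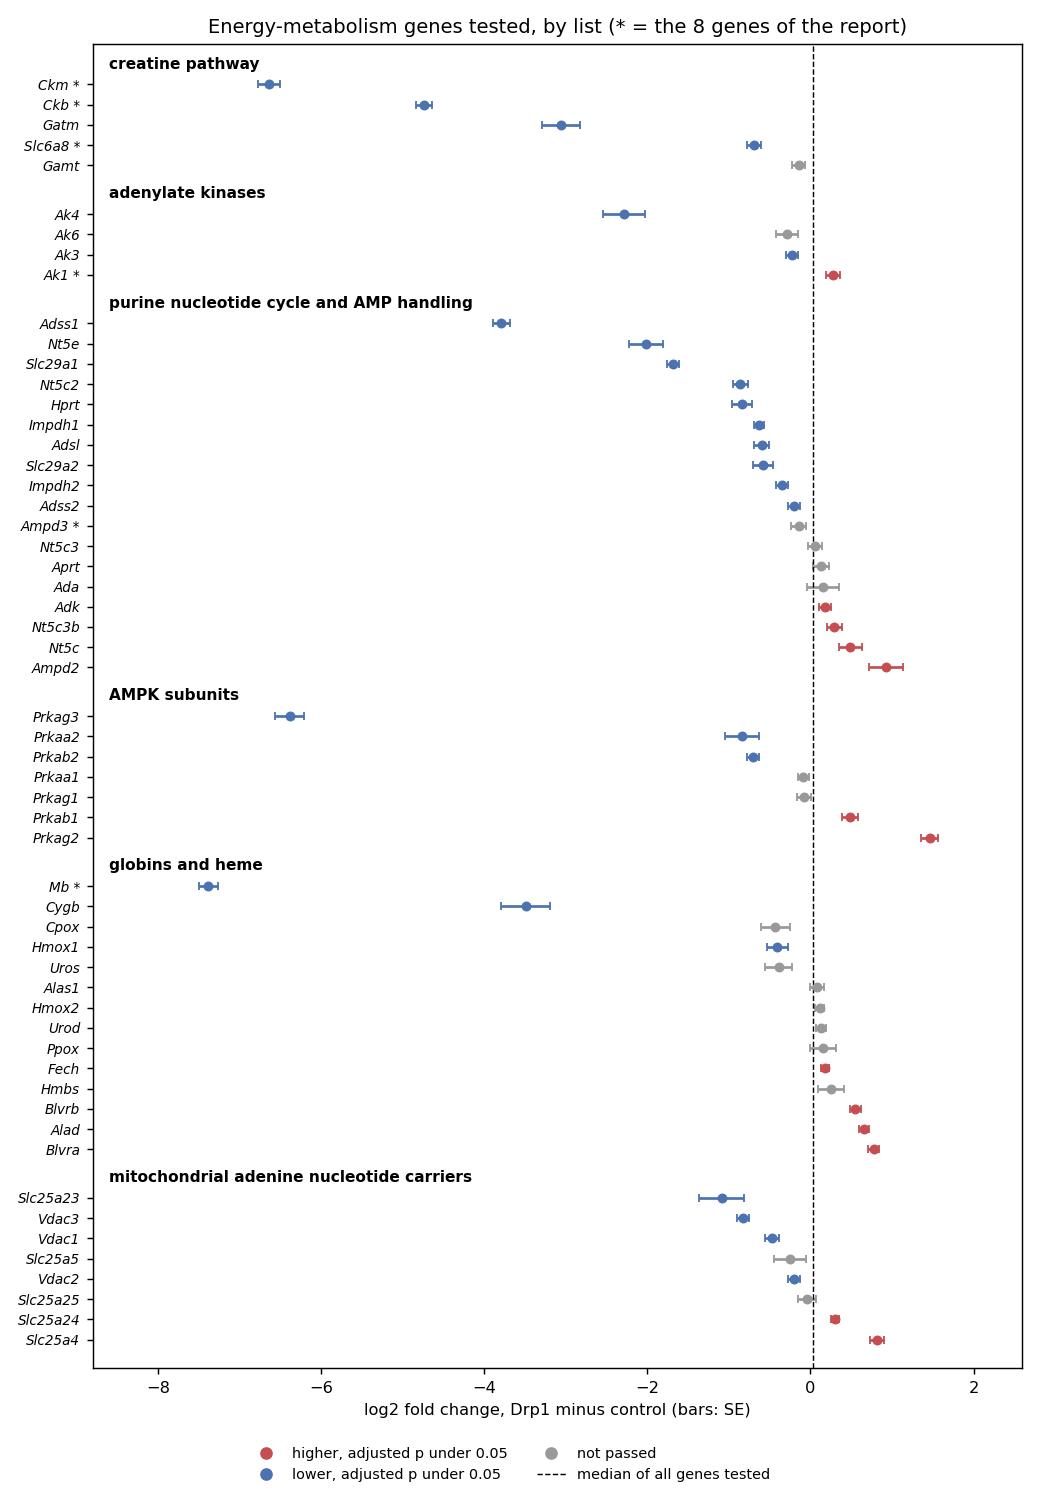
Log2 fold change, Drp1 minus control, with its SE, of each tested gene of the 6 lists; the colour gives the call at an adjusted p of 0.05, asterisks mark Ckm, Ckb, Slc6a8, Mb, Ak1 and Ampd3, and the dashed line is the median of all genes at 0.03. Mb, Ckm, Prkag3 and Ckb lie between -7.38 and -4.74, while most genes of the lists lie between -1 and 1.

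**Figure D4:**
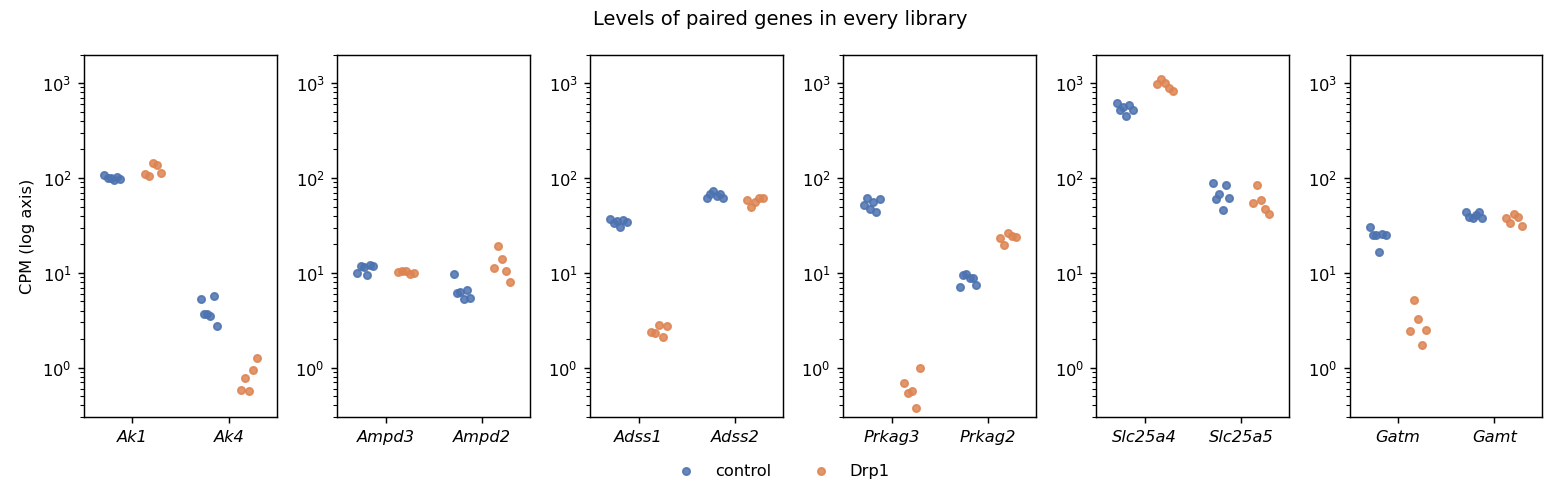
Level in CPM (log axis, the same in all panels) of pairs of genes with related functions in every library, the pairs chosen after their values were seen. Within pairs, Ak4, Adss1, Prkag3 and Gatm were lower in all Drp1 libraries than in any control library, while Prkag2 and Slc25a4 were higher in all of them.

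The order of the levels changed with the hairpin. Counted per transcript tag, control libraries held Mb and Ckb at the top with overlapping ranges, then Ckm and Ak1, also overlapping, then Slc6a8, Ampd3, and Ampd1 and Ckmt2 near 0. In Drp1 libraries Ak1 came first, followed by Slc6a8, by Ckb and Ampd3 with overlapping ranges, by Mb and then by Ckm. The 3 genes that led in the control order together with Ak1 thus ended below Slc6a8. Variation among replicates was modest for genes with ample counts: coefficients of variation in control were 4.60% for Ak1, 6.73% for Ckm, 7.22% for Mb, 7.93% for Ckb, 8.03% for Slc6a8 and 9.88% for Ampd3. Among Drp1 libraries they were 28.0% for Ckm and 19.1% for Mb, where counts were few, and 3.35% for Ampd3.

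Genes with profiles most like 4 of these genes were found by distance. The 8 genes of this report, unnamed and predicted genes, Rik clones and pseudogenes were left out as candidates. The mean level asked of a candidate was taken over all 11 libraries, so genes high in control alone could pass. Each of 8098 candidate genes with a mean of 10 CPM or more was set on a log2(CPM + 0.5) scale minus its control mean and compared over the 11 libraries by root-mean-square distance; the scale understates changes of low genes. Nearest to Ckm were Ctrb1 (distance 0.14), Pgm5 (0.16) and the fast troponin C Tnnc2 (0.18). Mb had the slow troponin C Tnnc1 (0.18), the myosin light chain Mylpf (0.20) and cardiac actin Actc1 (0.20) as its nearest genes. For Ckb they were the kinase Camk2a (0.13), the prostacyclin synthase Ptgis (0.14) and the sarcomere-associated Trim55 (0.15). Slc6a8 was nearest to Tmem115, Ubtd1 and Thap3 (0.06 to 0.07). Tnnc1 fell from 1450 to 10.8 CPM and Camk2a from 99.2 to 3.30 CPM. Trim55 fell from 18.5 to 0.298 CPM, a larger fold than Ckb had, though the added 0.5 brings the profiles close on this scale. These distances describe the 11 libraries and carry no test.

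**Figure D5:**
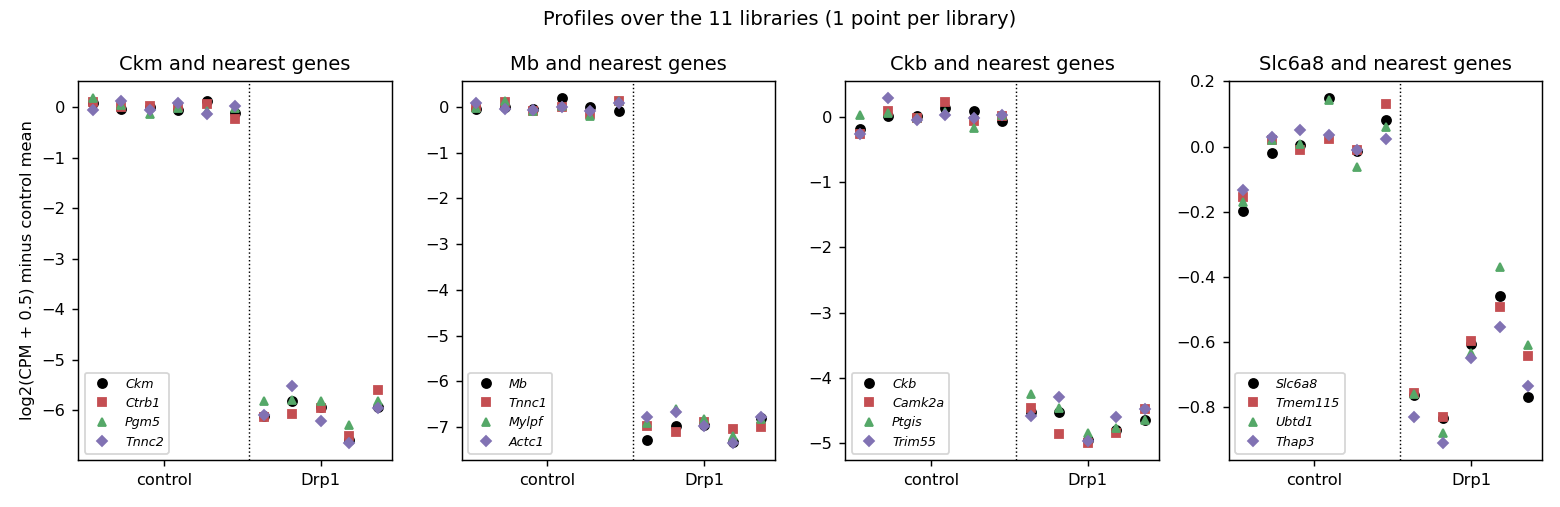
Log2(CPM + 0.5) minus its control mean for Ckm, Mb, Ckb and Slc6a8 (black) and the 3 genes nearest to each, 1 point per library, with vertical ranges that differ between panels. Points of Ckm, Mb and Ckb and their neighbours drop by several log2 units in all 5 Drp1 libraries, and those of Slc6a8 itself by less than 1.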

How the data were processed

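RNA of 6 control and 5 Drp1 C2C12 libraries was sequenced with QuantSeq, which primes on the poly(A) tail, per the labels' protocols. Reads were aligned in the BlueBee software, per the series text; for aligner, counter, strand and annotation: not given in the sources used here. Builds GRCm38 and mm10 and the tool DESeq2 1.22.2 stand in the submitters' processing notes. The authors deposited raw counts per gene for 15113 genes, and a second table of signal that the authors deposited proved to be these counts over a constant of each library; only shares were recomputed from it. Identifiers were matched to symbols for 15080 genes, and positions came from GENCODE M21 (GRCm38). Totals ran from 12277622 to 23082617 counts. Pairs of libraries within a group differed by more than sampling noise (chi-square over degrees of freedom 5.30 to 61.6).

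Counts were tested with edgeR 4.0.16 in R 4.3.3: filterByExpr by group (13025 genes left), TMM scaling, a robust quasi-likelihood fit with group as its only term, Benjamini-Hochberg adjustment over all genes tested, threshold 0.05. The SE is the log2 fold change over the square root of F, and the 95% interval uses 9 residual degrees of freedom. Steps were tested on simulated data in which few genes changed, evenly up and down, and by less than Ckm, Ckb and Mb did. That simulation does not show how the scaling performs where 67.1% of genes are called, as here. Alternatives were median-ratio factors, library totals alone, no filter, a filter of 10 counts in every library of a group, DESeq2 1.42.0, limma-voom (limma 3.58.1), the replicate number as a block, leaving out each library, and, added later, a fit lacking both control replicate 1 and Drp1 replicate 2. The genes and lists were chosen with earlier results of these data known. The genes named are Dnm1l, the 8 genes, all tested genes of the creatine and adenylate kinase lists (1 adenylate kinase gene is not reported here), Ampd2, Adss1, Adss2 and Adsl, the 3 genes with the smallest adjusted p of each other list, and the 3 nearest profiles of 4 genes. All columns of sample values were used. Protein sequences are not used here.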

Additional observations from a re-analysis of the deposited data

Results flagged for a closer look

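Dixon's test flagged 5 of the 76 groups of values tested over the named genes, where chance flags about 1 in 20. Mb was 374.0 CPM in control replicate 4, and 307.0 to 329.3 CPM in the other 5 control libraries. Ampd2 was 9.61 CPM in control replicate 1 against 5.25 to 6.64 CPM in the others, and this library is the one that overlaps the Drp1 range. Ctrb1 was 63.9 CPM in control replicate 6, below 75.7 to 80.6 CPM in the other control libraries. Pgm5 was 0.235 CPM in Drp1 replicate 4, below 0.515 to 0.541 CPM in the others. Thap3 was 31.9 CPM in control replicate 1, below 34.7 to 36.3 CPM in the others.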

How the results depend on the processing

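Under all 19 alternatives run, Ckm, Ckb, Mb, Slc6a8, Ak1, Ampd3 and Dnm1l kept their direction and their side of the threshold. Log2 fold changes ran from -6.73 to -6.46 for Ckm, -4.83 to -4.64 for Ckb, -7.47 to -7.28 for Mb, -0.75 to -0.59 for Slc6a8, 0.21 to 0.38 for Ak1 and -0.19 to -0.04 for Ampd3. The titles number libraries 1 to 5 in both groups; correlations of deviations between same-numbered libraries ran from -0.24 to 0.44, and 1 of 5 correlated best with its own number, so the numbers were not taken as pairs. With the replicate block the log2 fold change of Ckm was -6.67 and that of Ak1 0.26 (adjusted p = 0.044, edgeR). No call of the 6 tested genes changed, while Fech (adjusted p = 0.052, edgeR) and Adk (0.08) no longer passed and Cpox (0.03) did. Of all genes, 3937 to 5207 were higher and 3751 to 4824 lower. Genes of the purine nucleotide cycle and AMP handling numbered 3 to 5 higher and 9 to 10 lower. Mitochondrial carriers and pores numbered 2 to 3 higher and 3 to 5 lower. The count of lower adenylate kinases was 1 with library totals alone, where Ak3 did not pass, and 2 to 3 leaving out 1 library. Higher adenylate kinases numbered 2 with no filter and 1 to 2 leaving out 1 library, since Ak5 then entered the test. Lower globin and heme genes numbered 5 with median-ratio factors, DESeq2, limma-voom and in a fit, chosen after seeing the data, that lacked both control replicate 1 and Drp1 replicate 2, and 3 to 5 leaving out 1 library; Cpox and Uros, close to the threshold, made the difference. The share of Ckb was 75.6% to 76.8% in control and 91.4% to 92.8% in Drp1 libraries leaving out 1 library, and the deposited scaled counts gave 76.1% and 92.2%. Depth limits what can be said of Ckmt2 and Ampd1, with 11 and 23 counts in all. With no filter their adjusted p was 0.017 and 0.054 (edgeR).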
